A study of Mus musculus with 4 samples.

Results

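Epsilon (Ghrl+) cells, the ghrelin-producing endocrine cells that the study's authors labelled among cells derived from injured pancreatic acinar cells, are described here. The members are the 377 cells that carry this label in the authors' deposited list of tuft and enteroendocrine subtypes. They were 377 of 1269 cells in 5 enteroendocrine subtypes, of 13362 cells with a deposited cell type and of 21140 cells in all. The other subtypes were Delta (Sst+) cells (144), Ppy+ cells (140), enterochromaffin-like ECL (Tac1+) cells (217) and EEC-Progenitor (Neurog3+) cells (391). The authors' labels come from clustering these same counts, so a difference between Epsilon cells and another subtype is given as a description, without a test.

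Ghrelin is a peptide hormone that raises appetite and growth hormone secretion. It is made as a longer precursor, carries an acyl chain that the enzyme Mboat4 (ghrelin O-acyltransferase) attaches, and is cut out by the prohormone convertase Pcsk1, while acyl-CoA synthetases such as Acsl1 activate fatty acids. Most circulating ghrelin comes from the stomach, and epsilon cells are a rare cell type of the islet that is mainly found around birth.

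Acinar cells of adult mice were labelled with EYFP, injured with repeated caerulein, and sorted as living EYFP+ cells for droplet-based 3′ RNA sequencing with unique molecular identifiers (UMIs). Caerulein is a cholecystokinin analogue that overstimulates acinar cells and causes pancreatitis. Both groups were Ptf1aCre-ERTM;ROSAYFP/+ mice backcrossed into CD-1, aged 10 weeks when injury began, and each held 2 mice. The groups received caerulein for 2 weeks or for 4 weeks, as 2 intraperitoneal injections a day on 5 days of each week, followed by 2 days of recovery. All 4 mice had earlier received tamoxifen in corn oil by gavage, 5 mg a day on 5 days of each week for 2 weeks, which switches on the Cre recombinase driven from Ptf1a, an acinar transcription factor gene. No uninjured mice are among the samples, and the 4-week mice were also older at collection, so duration of injury and age cannot be told apart. Each mouse gave 1 library and is the replicate here, so every comparison between times is 2 mice against 2.

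The deposited table had already been limited to cells with at least 1000 UMIs and under 6% mitochondrial UMIs. The 4 mice gave 103, 86, 102 and 86 Epsilon cells (2-week mouse 1, 2-week mouse 2, 4-week mouse 1 and 4-week mouse 2, the order used for all per-mouse values), with 1839962, 1146297, 1629969 and 1193473 UMIs in all. The median Epsilon cell held 16490, 12681, 13246 and 11317 UMIs, so 2-week mouse 1 was the deepest. Every Epsilon cell held at least 1 EYFP UMI, with a median of 7, 4, 4 and 4. The deposited list of types covers EYFP+ cells, and every Acinar, MucinDuctal and Tuft cell also held at least 1. Holding an EYFP UMI therefore came with being on that list. Across the whole series 67 cell barcodes occurred in more than 1 mouse, and 2 of the Epsilon barcodes were among them. The sex of the mice is not in the labels: Xist, the X-inactivation transcript, had 1284, 1994, 1152 and 0 counts per 1000000 UMIs (CPM) in Epsilon cells, while 4 Y-linked genes (Eif2s3y, Ddx3y, Uty and Kdm5d) had UMIs in 4-week mouse 2 alone. The part of this in any difference between times was not tested.

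Ghrl lies on chromosome 6 of mm10, at 113716119 to 113719911 on the minus strand. Its promoter is shown because Ghrl is the transcript that names the cells. The 281 bases that end just before the start of its transcript in the GENCODE annotation (position 113719880) are at chr6:113719881-113720161 of GRCm38.p6, taken from the RefSeq promoter table and read on the minus strand. RefSeq lists 4 starts for Ghrl, and the gene interval above begins 31 bases further upstream, so those bases of the window lie inside it and distances below are from this 1 start. Both strands were searched for 3 short motifs, and the letters that match one are in capitals.

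Ghrl promoter: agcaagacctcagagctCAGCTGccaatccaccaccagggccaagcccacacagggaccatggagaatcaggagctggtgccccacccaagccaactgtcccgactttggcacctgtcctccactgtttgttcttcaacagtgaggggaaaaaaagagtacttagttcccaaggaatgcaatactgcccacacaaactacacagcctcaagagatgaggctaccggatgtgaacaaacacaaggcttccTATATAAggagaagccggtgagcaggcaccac

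The TATA-box sequence TATATAA began 32 bases before this transcript start, and 3.18% of 32851 mouse promoters held it within the same 281 bases. The E-box CAGCTG, of the kind that basic helix-loop-helix factors such as Neurog3 and Ptf1a bind, began 264 bases before the start, and 15.0% of promoters held it. The homeodomain core TAATTA was not in this window and was in 5.1% of promoters. These are matches of letters and not measured binding.

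The amount of Ghrl varied widely from cell to cell and between mice. Ghrl made up 19.9%, 4.72%, 28.5% and 16.4% of all Epsilon UMIs in the 4 mice. The median cell held 14.2%, 0.745%, 12.5% and 4.37% Ghrl, so 2-week mouse 2 stood below the other 3. The highest cell reached 63.3%, 29.0%, 73.6% and 68.8%, and the most Ghrl UMIs in a single cell was 37229. At the other end 2, 15, 5 and 11 cells, 33 in all, had no Ghrl UMI. Ppy+ cells had medians of 1.63%, 0.973%, 0.0794% and 0.109%, so in 2-week mouse 2 the median Ppy+ cell held more Ghrl than the median Epsilon cell. Delta medians lay between 0.0543% and 0.156%. In 214 of the 377 Epsilon cells (56.8%) Ghrl made up at least 5% of UMIs, a level chosen after the values were seen.

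**Figure D1:**
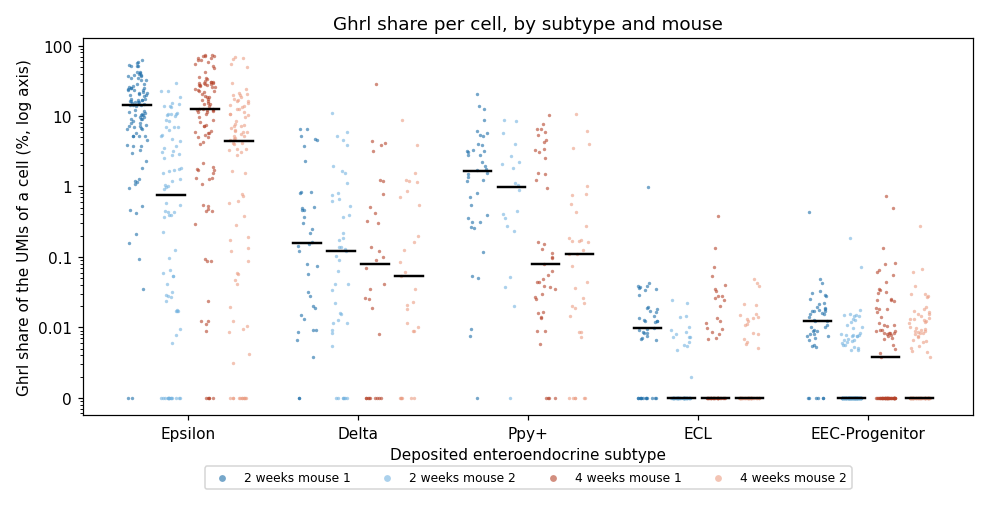
Ghrl as a percent of each cell's UMIs (vertical log axis with 0 added) for the 5 enteroendocrine subtypes in each of the 4 mice; each point is a cell and the black line is the median. Epsilon medians run from 0.745% to 14.2%, and single Epsilon cells reach 73.6%.

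Ghrl UMIs were also found in cells that should not make the hormone, so the share of cells with a UMI was set beside that background. Among Epsilon cells 98.1% (95% Clopper-Pearson interval 93.2 to 99.8), 82.6% (72.9 to 89.9), 95.1% (88.9 to 98.4) and 87.2% (78.3 to 93.4) held at least 1 Ghrl UMI; these intervals cover counting error only. Among Acinar cells the shares were 92.2%, 37.6%, 79.0% and 57.0%. When every cell was thinned to 2000 UMIs the shares were 97.5%, 70.9%, 91.1% and 78.9% in Epsilon cells, against 26.5%, 5.66%, 16.9% and 8.44% in Acinar cells and 19.9%, 3.50%, 13.0% and 7.26% in Tuft cells. At equal depth Epsilon cells were above both in every mouse. The nearest enteroendocrine subtypes were closer: the thinned shares were 91.3%, 87.7%, 67.6% and 61.5% in Ppy+ and 71.1%, 64.9%, 59.5% and 57.2% in Delta cells. Ppy+ cells were therefore above Epsilon cells in 2-week mouse 2, and Delta cells were below them in every mouse. Thinning left out 0, 1, 0 and 1 Epsilon cells with fewer UMIs.

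The low end of the Epsilon label overlapped with the Ghrl share of cells typed Tuft. The 99th percentile of that share was 0.912%, 0.0590%, 0.612% and 0.0221%. At or below it lay 9, 30, 19 and 18 Epsilon cells (8.74%, 34.9%, 18.6% and 20.9%). A few Ghrl-rich cells weigh on this cut: Tuft medians were 0.00870%, 0%, 0% and 0%, and the highest Tuft cells held 4.87%, 2.09%, 10.2% and 0.0241%. In 4-week mouse 1 the highest Tuft and the highest Ppy+ cell both held 3282 Ghrl UMIs. The Tuft type can thus include cells of an enteroendocrine subtype, and the cut is not a measured background. With Ghrl left out of the totals, these cells had 88.1, 63.7, 104 and 65.7 CPM of Acsl1 against 2152, 910, 2319 and 1390 CPM in the other Epsilon cells. They also had lower Maged2 (775, 922, 1421 and 520 against 3979, 2424, 4166 and 2829 CPM), which encodes a MAGE-family protein. Isl1, an islet homeodomain factor, was at 934, 1660, 1100 and 1718 CPM against 1346, 1639, 1333 and 1646 CPM, which overlap. Neurog3, the factor that starts endocrine differentiation, was at 8.81, 258, 426 and 217 CPM against 114, 116, 63.3 and 191 CPM, higher in 3 of 4 mice. These are groups cut at a level of Ghrl, and no test was made on them.

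Ghrl names the label, and 2 other markers were counted in the same way. Mboat4 had at least 1 UMI in 90.3%, 88.4%, 85.3% and 76.7% of Epsilon cells and in 1.16%, 0.686%, 1.05% and 0.224% of Acinar cells. After thinning to 2000 UMIs 34.0%, 46.5%, 34.9% and 31.7% of Epsilon cells held one. Acsl1 was found in 82.5%, 64.0%, 75.5% and 67.4% of Epsilon cells, in 23.2%, 24.9%, 17.9% and 17.7% of Acinar cells and in 62.7%, 44.8%, 50.9% and 44.1% of Tuft cells. After thinning to 2000 UMIs the Acsl1 shares were 57.8%, 33.8%, 57.9% and 41.3% in Epsilon, 2.16%, 2.33%, 1.42% and 1.03% in Acinar and 10.4%, 6.38%, 9.63% and 7.53% in Tuft cells. Other genes on the list of Epsilon-cell genes were close to 0: Anxa13 had a mean of 2.74 CPM, Vtn of 3.85 CPM and Asgr1 and Bhmt of 0.136 CPM each, while Defb1, Sptssb and Oprk1 had no UMI. Of the 17 genes on this list 8 reached a mean of 10 CPM in any enteroendocrine subtype.

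Cells with a second hormone at a high level were few. Of 11 other hormone genes, any reached 1% of a cell's UMIs in 3 of 377 Epsilon cells, through Pyy, Gip and Gcg in 1 cell each, and all 3 cells also held at least 1% Ghrl. Sst, which encodes somatostatin, summed to 12.0, 45.4, 71.8 and 181 CPM in Epsilon cells against a mean of 83254 CPM in Delta cells, and single cells held 99 of 117 and 165 of 216 of its UMIs in the 4-week mice. Pyy, peptide YY, was at 46.7, 438, 112 and 1844 CPM, and 1 cell of 4-week mouse 2 held 2090 of the 2201 UMIs there. Without the cell highest in Pyy in each mouse the values were 16.9, 263, 53.2 and 95.9 CPM. Cck, cholecystokinin, had at least 1 UMI in 5.83%, 8.14%, 7.84% and 12.8% of Epsilon cells, with up to 95 UMIs in a cell, against 0.685%, 1.20%, 0.394% and 0.448% of Acinar cells. After thinning to 2000 UMIs the Cck shares were 3.08%, 2.69%, 4.62% and 7.87% in Epsilon cells and at most 0.160% in Acinar and 0.131% in Tuft cells. Its Epsilon level ran from 44.8 CPM in 4-week mouse 1 to 230 CPM in 4-week mouse 2. Means were 68.9 CPM in Delta and 756 CPM in Ppy+ cells. A single Epsilon cell held 62 of 92, 46 of 65, 51 of 73 and 95 of 274 Cck UMIs. Without the cell highest in Cck in each mouse the Epsilon values were 16.5, 17.1, 13.6 and 151 CPM. Insulin (Ins2, mean 7.56 CPM), glucagon (Gcg, 16.5 CPM) and pancreatic polypeptide (Ppy, 6.51 CPM) were low. Ghsr, the ghrelin receptor, had 0 UMIs among 5809701, a count that allows up to 3.

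Markers of several other cell types were present. Acinar-enzyme transcripts summed to 21280, 10913, 14675 and 19977 CPM in Epsilon cells, and to means of 17607 to 26381 CPM in the other subtypes, with 0 of 25 measured enzyme genes highest in Epsilon cells. Mucin and ductal genes summed to 4670, 6077, 5696 and 6248 CPM, beside means of 4338 to 10959 CPM in the other subtypes, and Reg-family genes to 3390, 1476, 1656 and 1576 CPM, beside 2354 to 5434 CPM. Tuft genes summed to 61.4, 120, 55.8 and 68.7 CPM, immune-cell genes to 52.2, 66.3, 54.6 and 28.5 CPM, and stromal and endothelial genes to 13.0, 67.2, 7.98 and 15.1 CPM. No doublet caller was run on the labelled cells.

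To describe what else sets Epsilon cells apart, UMIs were summed per mouse and subtype, and each gene's CPM was divided by the highest CPM among the other 4 subtypes of the same mouse (log2 ratio with 1 CPM added to both). Of 10182 genes with a mean of at least 10 CPM in any of the 5 subtypes, 116 (1.14%) were highest in Epsilon cells in 4 of 4 mice and 43 (0.422%) were lowest. Since Ghrl alone takes up to 28.5% of the Epsilon UMIs, the CPM of every other gene is lower than it would be without it. With Ghrl left out of the totals 521 genes were highest and 14 lowest in every mouse, and with 7 hormones left out 294 and 28. With hormone transcripts left out of the totals, 10 genes rather than 7 were at least 2-fold above every other subtype in every mouse. Without 4-week mouse 1 there were 11, where the rule covers fewer mice and is easier to meet.

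The 7 genes were Ghrl, Acsl1, Irs4, Maged2, Cdkn1a, Lrrn3 and Anpep. Acsl1, a long-chain acyl-CoA synthetase, had 1596, 589, 1384 and 943 CPM in Epsilon cells and a mean of 39.7 CPM in Delta, 45.6 in Ppy+, 29.5 in ECL and 21.6 in progenitor cells. Its log2 ratio to the highest other subtype was 3.36 to 5.15, and the lowest of its 4 ratios was above that of any other gene with a mean of at least 50 CPM. Irs4, an insulin receptor substrate, had 257, 90.7, 186 and 169 CPM, with a mean of 10.0 CPM in Delta and 0 in ECL cells. These 2 genes and Ghrl were all lowest in 2-week mouse 2, the mouse with the lowest Ghrl.

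Maged2 had 2989, 1816, 2639 and 1983 CPM against a mean of 582 CPM in Delta cells, the next subtype. Cdkn1a, the cell-cycle inhibitor p21, was among the most even, at 4191, 3706, 3201 and 2835 CPM with log2 ratios of 1.46 to 1.56. Trp53cor1, a long noncoding RNA gene that neighbours Cdkn1a, had 145, 145, 129 and 103 CPM against 73.0 CPM in Delta cells. Lrrn3, a leucine-rich repeat membrane protein, had 112, 144, 79.8 and 92.2 CPM. Anpep, aminopeptidase N, had 595, 863, 679 and 537 CPM against 242 CPM in Delta cells.

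Below 2-fold the list went on to regulators, surface proteins and enzymes. Fhl2, a LIM-domain cofactor, had 190, 165, 163 and 162 CPM, and Tm4sf4, a small membrane protein, had 1795, 1611, 1895 and 2018 CPM. Rgs17, a regulator of G-protein signalling, had 517, 810, 515 and 530 CPM. Cd177, a surface glycoprotein, was uneven at 89.7, 24.4, 220 and 261 CPM. Further genes on the list were Zcchc12, St8sia2, Rab15, Gmds, Alcam, Klf4, Muc1, Ckb, Acat1, Lap3, Lrrtm3, Gde1, Gm30648, Ceacam10, Sipa1l1, Mrps36 and Ctsl, and their smallest log2 ratios ran from 0.32 for Ctsl to 0.84 for Zcchc12.

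**Figure D2:**
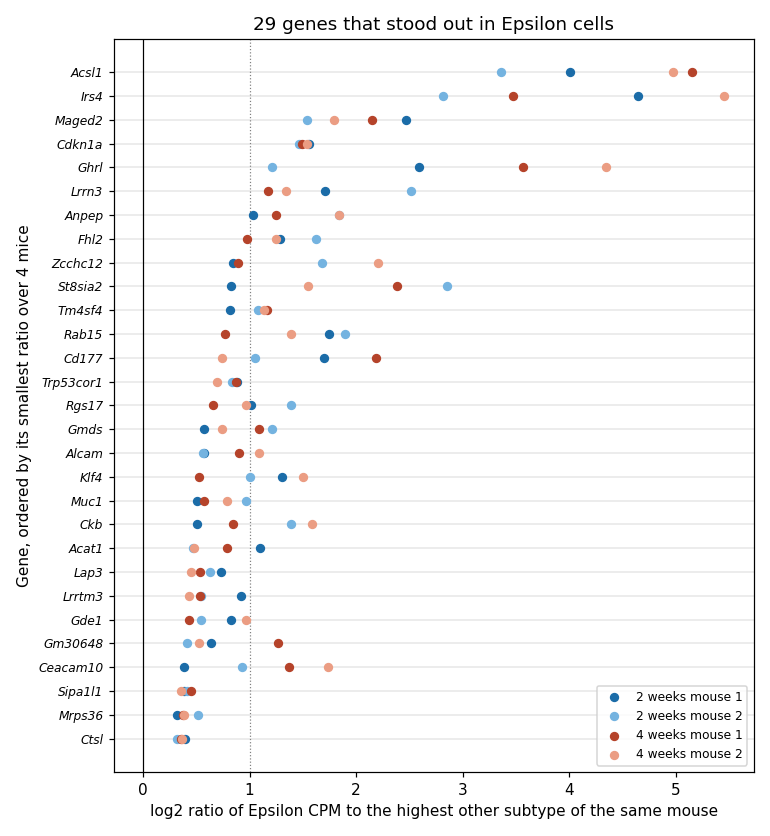
Genes that stood out most in Epsilon cells (29 shown), with the log2 ratio of Epsilon CPM to the highest other enteroendocrine subtype of the same mouse on the horizontal axis and 1 point per mouse; the dotted line marks a 2-fold difference. Acsl1 lies between 3.36 and 5.15, and Cdkn1a between 1.46 and 1.56.

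Of the genes that make or process ghrelin, 2 of 12 measured, Ghrl and Acsl1, were highest in Epsilon cells in 4 of 4 mice (background 1.14%). Ghrl names the label, so its place came with the label, and Acsl1 is the only gene beyond it. Mboat4 joined Ghrl and Acsl1 in every mouse when Ghrl, or the 7 hormones, were left out of the totals. It had 218, 370, 209 and 235 CPM, a mean of 258 ± 75.3 (SD, n = 4), and Delta cells had 205 ± 53.1 CPM, which overlaps. Ppy+, ECL and progenitor cells were lower for Mboat4, at means of 41.6, 14.0 and 27.2 CPM. Pcsk1, the convertase that cuts proghrelin, was at 160, 93.3, 155 and 139 CPM, a mean of 137 CPM, beside means of 125 CPM in Delta and 179 CPM in Ppy+ cells. Pcsk2, the other main convertase, had 18.5, 7.85, 44.2 and 41.9 CPM in Epsilon cells and means of 792, 1229 and 443 CPM in Delta, Ppy+ and ECL cells. Cpe, the carboxypeptidase that trims cut peptides, was at 698, 610, 677 and 859 CPM. Bche, butyrylcholinesterase, which removes the acyl chain, had a mean of 7.96 CPM.

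**Figure D3:**
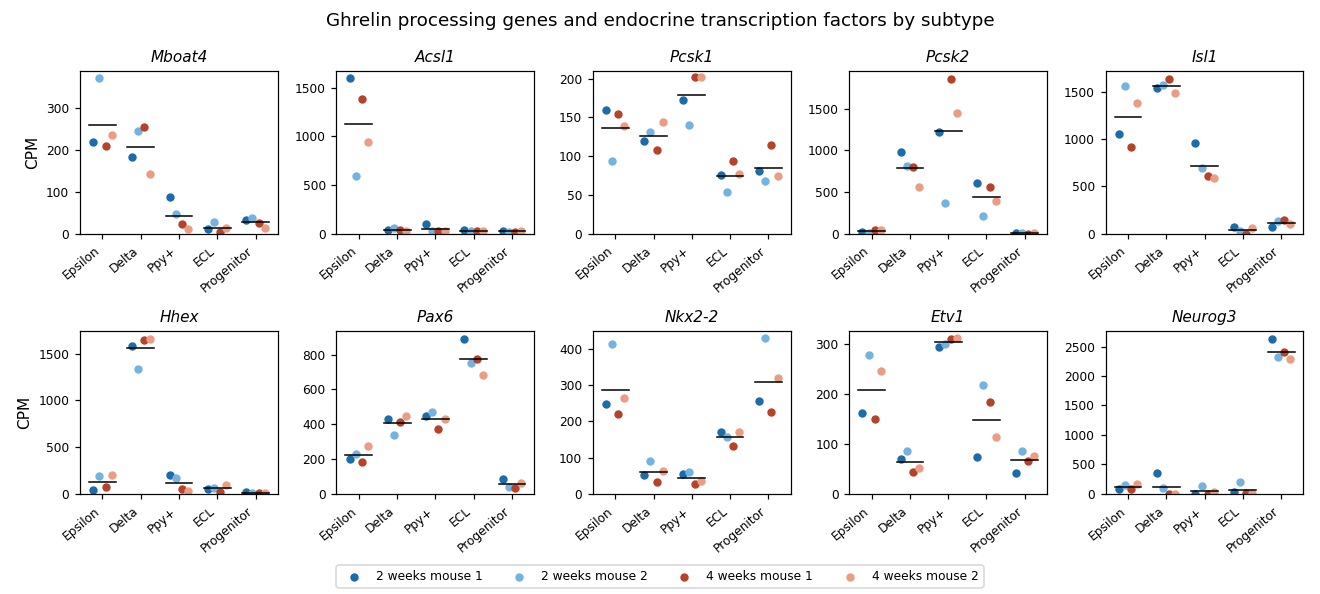
CPM of 10 genes of ghrelin production and endocrine identity by subtype, with 1 point per mouse and a line at the mean of the 4 mice. Acsl1 is highest in Epsilon cells, Mboat4 overlaps with Delta cells, and Pcsk2 is low in Epsilon cells at 7.85 to 44.2 CPM.

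Endocrine transcription factors showed a mixed pattern in Epsilon cells. Isl1, an islet homeodomain factor, had 1052, 1569, 924 and 1388 CPM in Epsilon cells, below the mean of Delta cells (1566 CPM) in 3 of 4 mice and above those of Ppy+ (714 CPM) and ECL cells (37.7 CPM). Hhex, a factor of delta cells, had 40.8, 194, 69.3 and 199 CPM against 1557 CPM in Delta cells. Pax6, a pan-islet factor, had 203, 229, 181 and 274 CPM against 407, 432 and 776 CPM in Delta, Ppy+ and ECL cells. Nkx2-2, whose loss in mice gives an islet rich in ghrelin cells, had 248, 413, 220 and 266 CPM, near the progenitor mean of 308 CPM and above Delta (59.5 CPM) and Ppy+ cells (45.2 CPM). Neurod1 had a mean of 585 CPM and Etv1 of 210 CPM, while Pax4 (11.3 CPM) was low. In order of mean Neurog3 the Epsilon cells stood above Delta, ECL and Ppy+ cells, whose spreads overlap with theirs, and far below progenitors at 2411 CPM.

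The receptor list held 1 of 12 measured genes highest in Epsilon cells in every mouse, Adrb1, the beta-1 adrenergic receptor through which noradrenaline releases ghrelin. It had 12.0, 6.11, 26.4 and 12.6 CPM, and no other subtype had a mean above 2.30 CPM. The fatty acid receptors Ffar2 (155 CPM) and Ffar4 (88.0 CPM) were present without being highest. Among 32 granin and secretory genes Slc18a2, the vesicular monoamine transporter, had 44.0, 27.0, 40.5 and 34.4 CPM, and Kcnk16, a potassium channel of islet cells, had 323, 306, 273 and 243 CPM, each highest in every mouse. The endoplasmic reticulum (ER) stress list added Sdf2l1 (148, 175, 157 and 169 CPM) and Creld2 (106, 120, 118 and 122 CPM), 2 of 13. The progenitor list added Cdkn1a (1 of 23), the mucin and ductal list Muc1 (1 of 19) and the immediate early list Klf4 (1 of 19). The Epsilon-cell list also held Ghrl, which names the label, and Acsl1. None was highest among 16 other hormone and amine genes, 12 tuft, 5 Reg-family, 6 proliferation, 17 interferon and MHC, 7 immune, 2 stromal and 10 islet beta and alpha genes, and no list had a gene that was lowest in Epsilon cells in every mouse. These counts depend on the totals. With the 7 hormones left out, Mboat4, Fgf14, Stx1a and Hspa5 were also highest in every mouse, and with Ghrl alone left out so were Scgn, Syt7, Hsp90b1 and the MHC gene H2-D1.

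Epsilon cells were next compared among themselves by their Ghrl level. Ghrl and the genes tested are among the counts behind the label, so which Ghrl-low cells carry it also rests on their other genes. In each mouse the cells were split at that mouse's median Ghrl share, the UMIs were summed, Ghrl was removed from counts and totals, and Ghrl-high cells were tested against Ghrl-low cells with edgeR's quasi-likelihood test and mouse as a block. The split is a range of a level and not a division into types. The lowest Ghrl-high cell held 14.2%, 0.913%, 12.6% and 4.53% Ghrl and the highest Ghrl-low cell 13.7%, 0.577%, 12.4% and 4.21%. Median UMIs other than Ghrl were 13410, 12487, 12596 and 11515 in Ghrl-high and 14943, 11727, 9781 and 9354 in Ghrl-low cells, so Ghrl-high cells were deeper in 3 of 4 mice. Median mitochondrial shares were 1.55%, 2.12%, 1.14% and 1.59% in Ghrl-high and 2.04%, 2.16%, 1.71% and 1.89% in Ghrl-low cells. These are shares of all UMIs with Ghrl included, so more Ghrl lowers them by itself. The shares with Ghrl left out were not computed. When 361 cells with at least 5000 UMIs other than Ghrl were split anew and thinned to that number, 209 genes passed, 182 of them among the 444 calls given next. When 363 cells with at least 5000 UMIs in all were split anew and not thinned, 441 genes passed. Thinning also lowers the counts tested, so a part of the depth gap and fewer counts cannot be told apart.

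In Ghrl-high cells 9 of 31 granin and secretory genes and 9 of 13 ER stress genes were higher, and 7 of 19 endocrine progenitor genes were lower. Of 7279 genes tested 444 (6.1%) passed an adjusted p of 0.05 (Benjamini-Hochberg), 281 higher (3.86%) and 163 lower (2.24%) in Ghrl-high cells. The median log2 difference over all genes tested was -0.00864, and 1871 genes (25.7%) had the same sign in 4 of 4 mice. DESeq2 on the same sums called 127 genes, of which 114 were among the 444, and edgeR without the mouse block called 120. Without 4-week mouse 1 the count was 284, and without 4-week mouse 2 it was 291.

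The smallest p-values belonged to genes with no place on the lists. Fxyd2, a regulatory subunit of the sodium pump, had 26.9, 3.83, 13.1 and 4.66 CPM in Ghrl-low and 314, 121, 285 and 137 CPM in Ghrl-high cells, a log2 difference of 4.08 (SE 0.213, adjusted p 5.26e-11). Pcp4, a small calmodulin-binding protein, had 79.6, 26.8, 37.5 and 23.3 CPM in Ghrl-low and 648, 133, 579 and 204 CPM in Ghrl-high cells (log2 difference 3.19). The values of the Ghrl-low and Ghrl-high cells did not overlap for either gene. The share of all genes tested without such overlap was not computed, so overlap is given here and below as a description only. Ly6h, a membrane-anchored protein of neurons, rose by 3.10 on the log2 scale, and Ina, the neurofilament protein alpha-internexin, by 2.40. Acot7, an acyl-CoA thioesterase, rose by 2.79, Rprm, a cell-cycle regulator, by 2.02, and Cst3, the protease inhibitor cystatin C, by 1.12. Irs4, already among the genes that stand out in Epsilon cells, had 176, 47.9, 86.4 and 65.2 CPM in Ghrl-low and 484, 138, 406 and 306 CPM in Ghrl-high cells (log2 difference 1.85).

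Of the genes that stood out in Epsilon cells 29 were tested (Ghrl was not), and 16 were higher and 1, Anpep, was lower in Ghrl-high cells, beside 3.86% and 2.24% of all genes tested. The list was drawn from the summed UMIs of these same cells, so a gene carried by Ghrl-high cells had more chance to enter it, and the count is a description. Maged2 had 2997, 1252, 2568 and 1150 CPM in Ghrl-low and 4558, 2505, 4636 and 3294 CPM in Ghrl-high cells (log2 difference 1.00, adjusted p 0.0135). Cdkn1a rose by 0.25. Acsl1 had 973, 278, 492 and 130 CPM in Ghrl-low and 3138, 929, 3150 and 1880 CPM in Ghrl-high cells, more than 3-fold higher in each mouse. Its log2 difference of 2.43 did not pass edgeR's test (adjusted p 0.136) and passed with DESeq2 (adjusted p 3.85e-05).

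**Figure D4:**
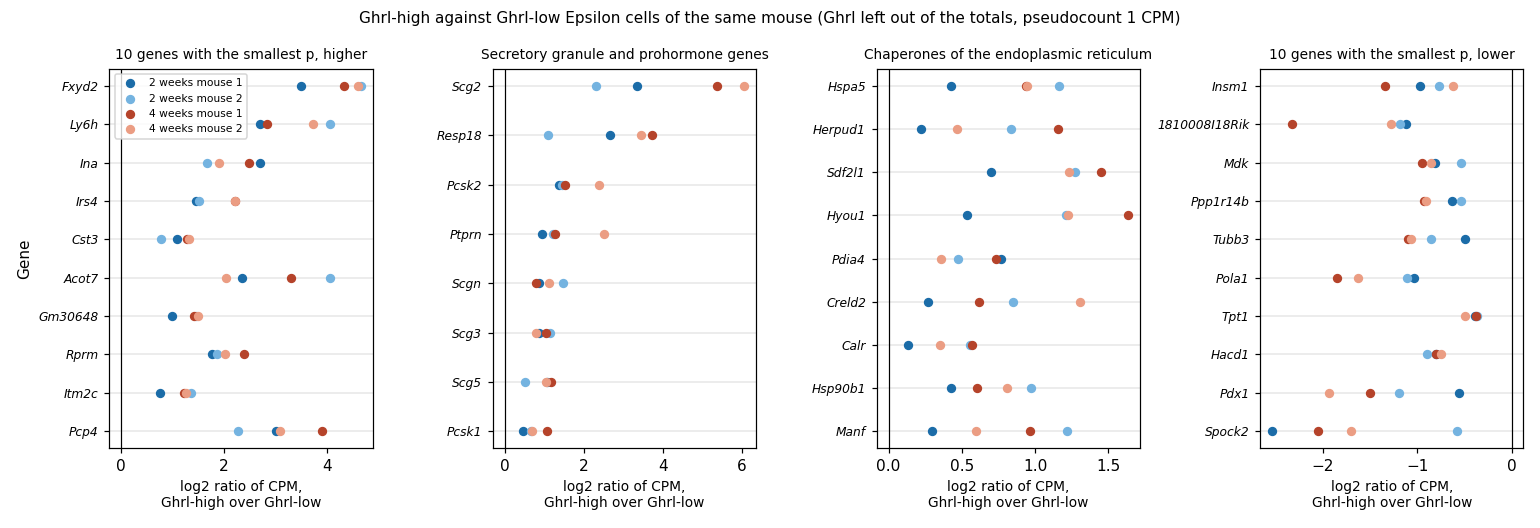
The log2 ratio of CPM in Ghrl-high over Ghrl-low Epsilon cells, with 1 point per mouse. The panels show 10 genes that were higher, 8 granule and convertase genes, 9 genes of the ER stress list and 10 genes that were lower. The panel titled as chaperones holds the ER stress genes. Points right of 0 are higher in Ghrl-high cells, and the genes of the last panel lie left of 0 in all 4 mice.

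Among genes of ghrelin production both convertases rose with Ghrl. Pcsk1 had 169, 74.7, 135 and 123 CPM in Ghrl-low and 233, 119, 285 and 199 CPM in Ghrl-high cells (log2 difference 0.73, adjusted p 0.0011). Pcsk2 had 12.8, 3.83, 30.0 and 14.0 CPM in Ghrl-low and 34.6, 12.3, 88.5 and 77.4 CPM in Ghrl-high cells (log2 difference 1.77). Its counts were low, with 34 UMIs in 17 Ghrl-low cells and 131 in 41 Ghrl-high cells. A single Ghrl-low cell of 4-week mouse 1 held 11 of 16 Pcsk2 UMIs. Each convertase was higher in 4 of 4 mice, although the ranges over mice overlapped. Hadh, a fatty acid oxidation enzyme, fell by 0.49, so 2 of 11 tested members rose and 1 fell (median 0.459). Mboat4 did not pass the test, with 226, 450, 259 and 217 CPM in Ghrl-low and 326, 331, 319 and 331 CPM in Ghrl-high cells (log2 difference 0.25, adjusted p 0.473), and was lower in Ghrl-high cells in 2-week mouse 2.

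The granin and secretory list had 9 of 31 tested genes higher and 3 lower, with a median of 0.41. Scg2, which encodes secretogranin II of dense-core granules, had 15.4, 3.83, 3.75 and 2.33 CPM in Ghrl-low and 164, 22.8, 196 and 222 CPM in Ghrl-high cells (log2 difference 4.32, adjusted p 8.28e-06). These were 17 Scg2 UMIs in 11 Ghrl-low cells and 377 in 60 Ghrl-high cells, so the size of the difference rests on few Ghrl-low UMIs. Resp18, a granule protein, had 41.1, 19.2, 50.7 and 32.6 CPM in Ghrl-low and 267, 42.1, 686 and 362 CPM in Ghrl-high cells (log2 difference 3.09, adjusted p 0.0184). In the Ghrl-low cells of 2-week mouse 2 a single cell held 8 of 10 Resp18 UMIs. Ptprn, a granule membrane protein, rose by 1.41, Scgn, the calcium sensor secretagogin, by 1.06, Scg3 and Scg5 by 0.96 each and Kcnk16 by 0.48. Syt13 (-0.81), Stx1a (-0.58) and Cacna1a (-0.39), genes of vesicle fusion and calcium entry, were the 3 that fell. Chgb, chromogranin B, had a log2 difference of 2.34 that did not pass (adjusted p 0.293), with 731 of 800 UMIs of the Ghrl-high cells of 2-week mouse 2 in 1 cell, and Cpe one of 0.63 (adjusted p 0.195).

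The ER stress list had 9 of 13 tested genes higher, none lower and a median of 0.679. Hspa5, the chaperone BiP, had 1025, 669, 762 and 636 CPM in Ghrl-low and 1379, 1500, 1457 and 1222 CPM in Ghrl-high cells (log2 difference 0.87, adjusted p 3.96e-05), with no overlap. Sdf2l1, an ER co-chaperone, had 142, 105, 113 and 114 CPM in Ghrl-low and 232, 256, 310 and 269 CPM in Ghrl-high cells (log2 difference 1.16, adjusted p 5.88e-06). The chaperone Hyou1 rose by 1.14, the secreted ER protein Manf by 0.77, Creld2 by 0.74, Hsp90b1 by 0.71, Herpud1 by 0.68, Pdia4 by 0.60 and Calr by 0.41.

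Most endocrine transcription factors that passed the test were lower in Ghrl-high cells. Of 27 factors tested 6 fell: Insm1, Pdx1, Fev, Tox3, Sox4 and Ptf1a (median of the list -0.378). Peg3, an imprinted zinc-finger gene, rose by 0.63. Insm1, a zinc-finger factor of endocrine progenitors, had 372, 638, 591 and 624 CPM in Ghrl-low and 189, 373, 232 and 404 CPM in Ghrl-high cells (log2 difference -0.92, SE 0.105, adjusted p 5.88e-06). Pdx1, a pancreatic and duodenal homeodomain factor, had 64.2, 109, 118 and 198 CPM in Ghrl-low and 43.2, 47.3, 41.1 and 51.0 CPM in Ghrl-high cells (log2 difference -1.33). Ptf1a, the acinar factor whose gene also drives the Cre, had 42.3, 36.4, 39.4 and 27.9 CPM in Ghrl-low and 11.5, 21.0, 3.16 and 10.6 CPM in Ghrl-high cells (log2 difference -1.68). Pdx1 and Ptf1a did not overlap between Ghrl-low and Ghrl-high cells, and Insm1 did, where the share over all genes tested was not computed. Ptf1a UMIs were found in 20 Ghrl-low and 6 Ghrl-high cells in all. Hhex had 92.4, 339, 190 and 521 CPM in Ghrl-low and 4.32, 78.9, 19.0 and 22.9 CPM in Ghrl-high cells, yet its log2 difference of -3.23 missed the threshold in edgeR (adjusted p 0.0593) and passed it with DESeq2 (adjusted p 1.22e-13). The 2 groups of Hhex values did not overlap, but a single cell held 41 of 72 UMIs in the Ghrl-low cells of 2-week mouse 1. Without the highest cell of each the lowest Ghrl-low value was 40.8 CPM and the highest Ghrl-high value 48.3 CPM. Isl1 did not pass (log2 difference -0.30, adjusted p 0.0717).

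The progenitor list had 7 of 19 tested genes lower and 1, Cdkn1a, higher, with a median of -0.386. The genes that fell were Sox4, Hes6, Insm1, Tubb3, Mdk, Rcor2 and Fev. Tubb3, a tubulin of neurons and early endocrine cells, had 226, 404, 248 and 386 CPM in Ghrl-low and 160, 223, 115 and 185 CPM in Ghrl-high cells (log2 difference -0.87). Mdk, the growth factor midkine, fell by 0.77, and Fev, an ETS factor of the step after Neurog3, by 1.02. Neurog3 itself had a log2 difference of -0.39 (adjusted p 0.735), and it was lower in Ghrl-high cells in 3 of 4 mice. Stmn1, a microtubule regulator that stood on the proliferation list, fell by 1.00, and was the 1 call among 5 tested (median -0.433).

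The remaining lists had few calls. Acinar enzymes had 0 of 25 called and a median of -0.0018, while their summed level was 32735, 8540, 12010 and 35597 CPM in Ghrl-low and 19659, 14118, 27695 and 15037 CPM in Ghrl-high cells, with no common direction over mice. Krt7 and Krt8, keratins of ductal cells, fell by 0.51 and 0.30, 2 of 17 mucin and ductal genes (median -0.0354). Nucb2, the precursor of nesfatin, rose by 1.16 on the list of Epsilon-cell genes (median 0.536 over 6 tested). Ramp1, a receptor activity-modifying protein, rose by 1.30, 1 of 5 receptor genes (median -0.0143). Of 14 immediate early genes Klf6 rose (1.09) and Jund and Ier2 fell by 0.29 and 0.38 (median -0.203). Cd79a, a B-cell receptor gene and the only immune gene tested, had 24.4, 19.2, 33.8 and 18.6 CPM in Ghrl-low and 1.44, 10.5, 1.58 and 0 CPM in Ghrl-high cells (log2 difference -2.80). Single Ghrl-low cells held 11 of 19 Cd79a UMIs in 2-week mouse 1 and 13 of 18 in 4-week mouse 1, and without the highest cell of each mouse the Ghrl-low values were 10.6, 15.7, 9.71 and 11.9 CPM. No call was made among 9 interferon and MHC (median 0.0574), 4 other hormone (median -0.137), 3 Reg-family (median 0.0555), 2 islet (median 1.41) and 1 tuft gene. No stromal gene was tested. Ttr, an islet gene, had 549, 184, 216 and 305 CPM in Ghrl-low and 1633, 643, 2695 and 1421 CPM in Ghrl-high cells, without overlap, and its log2 difference of 2.30 did not pass in edgeR (adjusted p 0.152) but did with DESeq2 (adjusted p 0.000152).

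The second question of the design was whether Epsilon cells differed between 2 and 4 weeks of injury. Their share of the 5 enteroendocrine subtypes was 38.3% (95% Clopper-Pearson interval 32.5 to 44.4, of 269 cells) and 22.2% (18.1 to 26.6, of 388) at 2 weeks, and 32.9% (27.7 to 38.4, of 310) and 28.5% (23.5 to 33.9, of 302) at 4 weeks. The means were 30.2% ± 11.4 and 30.7% ± 3.13 (SD, n = 2 each), and the 4-week values lay between the 2-week values. The difference of 0.463 percentage points had a two-sided exact permutation p of 1.0 (adjusted over 5 subtypes 1.0), where 2 mice against 2 cannot go below 0.333. The sign rests on single mice: it was -7.6 without 2-week mouse 2, -1.75 without 4-week mouse 1 and 8.53 without 2-week mouse 1. Of all typed cells Epsilon cells were 3.45%, 2.40%, 3.63% and 2.16%. Without progenitors they were 46.0%, 38.7%, 45.3% and 41.6% of enteroendocrine cells.

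No Epsilon gene passed the test between the times with edgeR: 0 of 9498 genes (0%) had an adjusted p under 0.05, while 362 (3.81%) had an unadjusted p under 0.05. DESeq2 called 1 gene, Ceacam10, a cell-adhesion family member (31.0, 17.4, 83.4 and 117 CPM), which was named after its values were seen. The count was 204 without 2-week mouse 1, 114 without 2-week mouse 2 and 4 without 4-week mouse 1 (Cck, Xist, Eif2s3y and Ddx3y), and was 0 without 4-week mouse 2. In 3103 genes (32.7%) both mice of one time lay beyond both of the other. Random order of 2 mice against 2 gives this in a share of 0.333, so the 32.7% does not by itself show an effect of time. Ghrl itself had a log2 difference of 1.00 (SE 1.21, adjusted p 0.999), since the 2 mice of each time stood far apart. Every list had 0 calls. The medians were 0.243 for 13 genes of ghrelin production, 0.215 for 7 Epsilon-cell genes, 0.321 for 9 receptors, -0.00301 for 30 transcription factors, 0.109 for 31 secretory and -0.162 for 22 progenitor genes, beside 0.000388 over all genes tested. The medians farthest from 0 were 1.37 for 9 other hormone and amine genes (8 positive) and 0.77 for 5 islet genes (5 positive). For 4 Reg-family genes the median was -0.498 (0 positive). Over all genes tested 4758 of 9498 were positive. Single cells carried much of some hormone sums: the highest cell held 55 of 86, 210 of 502, 97 of 183 and 2090 of 2201 Pyy UMIs. For Sst the highest cell held 3 of 22, 27 of 52, 99 of 117 and 165 of 216. Iapp, given below, stood on both the hormone and the islet list. The other 8 lists with a tested gene had medians from -0.327 (3 tuft genes) to 0.179 (17 mucin and ductal genes).

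The genes with the smallest p are given as values because none passed. Iapp, islet amyloid polypeptide, had 4.89 and 3.49 CPM at 2 weeks and 25.8 and 29.3 CPM at 4 weeks (log2 difference 2.82, SE 0.383, adjusted p 0.0841). A single cell held 32 of 42 and 32 of 35 Iapp UMIs in the 4-week mice, and 4, 4, 3 and 3 cells held any (3.88%, 4.65%, 2.94% and 3.49%). Without the cell highest in Iapp in each mouse the values were 1.65, 2.64, 6.19 and 2.55 CPM, which overlap. Pde10a, a cyclic nucleotide phosphodiesterase, had 3.26 and 2.62 against 17.8 and 29.3 CPM (log2 difference 3.08, SE 0.442, adjusted p 0.0841), with UMIs in 2, 2, 7 and 4 cells. Pga5, a pepsinogen gene, had 36.4 and 35.8 against 71.2 and 82.1 CPM, and its level in the MucinDuctal cells of the same mice was 5508, 687, 8630 and 5623 CPM. In all 3 genes both 4-week mice were above both 2-week mice. Elavl4, a neuronal RNA-binding protein, went the other way with 32.6 and 58.4 against 11.0 and 10.1 CPM (log2 difference -1.82, adjusted p 0.169). Cuzd1, a zymogen granule gene, had 66.8 and 65.4 against 25.8 and 31.0 CPM, beside 1362, 1458, 1648 and 1139 CPM in Acinar cells. Ly6e, an interferon-induced gene, had 239 and 176 against 66.3 and 90.5 CPM, and the other enteroendocrine cells had 366, 241, 167 and 171 CPM. In the other enteroendocrine cells Pde10a was at 11.8, 8.40, 13.8 and 18.7 CPM, Pga5 at 184, 64.7, 281 and 347, Elavl4 at 14.9, 23.2, 9.59 and 6.62 and Cuzd1 at 85.6, 76.1, 34.6 and 30.7 CPM. For these 5 genes the mice of the 2 times did not overlap there either, in the same order as in Epsilon cells. The other cells come from the same mice, in which the genes were picked by p. Over all genes tested in Epsilon cells 32.7% did not overlap between the times, and that share was not computed for the other cells.

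**Figure D5:**
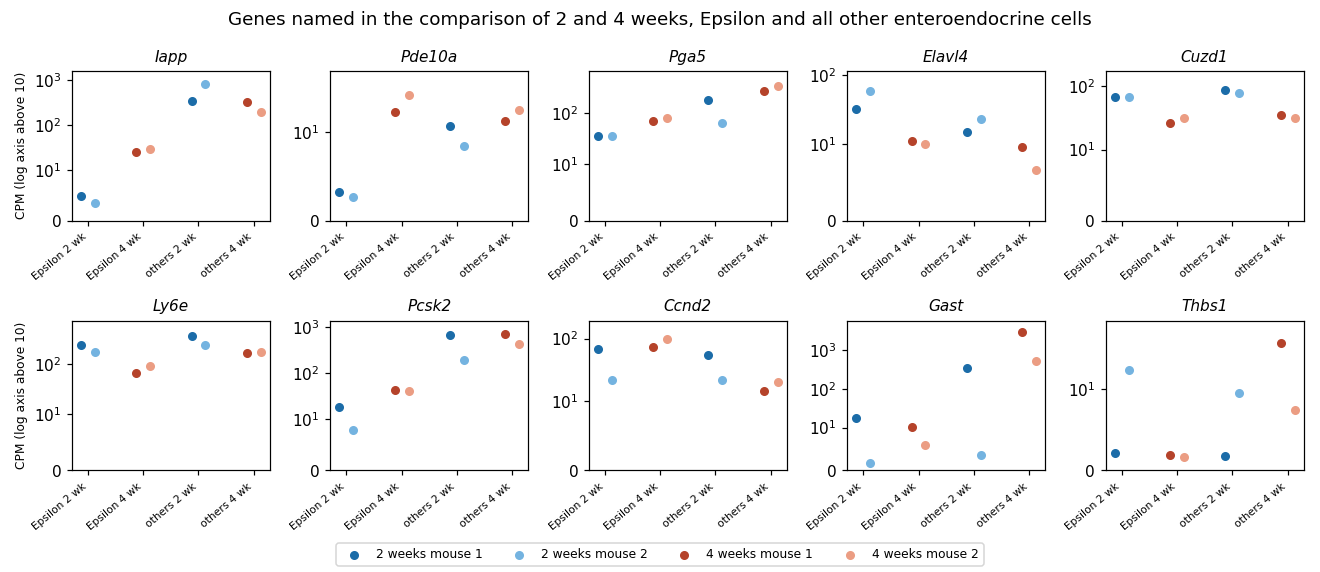
CPM of 10 genes in Epsilon cells and in the other enteroendocrine cells together at 2 and 4 weeks of caerulein, with 1 point per mouse on an axis that is logarithmic above 10. Iapp in Epsilon cells lies at 3.49 and 4.89 CPM at 2 weeks and at 25.8 and 29.3 CPM at 4 weeks, where 1 cell per mouse holds 32 of its 42 and 35 UMIs.

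An interaction term asked whether time acted differently on Epsilon cells than on the other enteroendocrine cells of the same mice. The mouse was kept as a blocking factor. The other cells were the sum of 4 subtypes, and their mix differed by mouse. Progenitors were 45 of 166, 166 of 302, 85 of 208 and 95 of 216 of them, and Ppy+ cells 40, 20, 45 and 35. Genes that differ between these subtypes can shift with the mix, and its part in the interactions was not tested. Of 11255 genes 9 (0.08%) passed, 7 with a more positive (0.0622%) and 2 with a more negative (0.0178%) difference in Epsilon cells. With DESeq2 1 gene passed, Gm2663. Leaving out 2-week mouse 1, 2-week mouse 2, 4-week mouse 1 or 4-week mouse 2 gave 53, 55, 23 and 27 genes, with 5, 8, 7 and 7 of the 9 among them. Iapp had an interaction of 3.84 (SE 0.465, adjusted p 0.00781), with 340 and 814 CPM at 2 weeks and 332 and 195 CPM at 4 weeks in the other cells. Its Epsilon side rests on the single cells of 32 UMIs in the 4-week mice, and in the other cells of 2-week mouse 2 a single cell held 2786 of 3585 UMIs. Pcsk2 had one of 1.44 (SE 0.267, adjusted p 0.0359): Epsilon cells had 18.5, 7.85, 44.2 and 41.9 CPM, and the other cells 676, 194, 698 and 439 CPM. Ccnd2, the cell-cycle protein cyclin D2, had one of 2.17 (SE 0.279, adjusted p 0.00115), with 69.0, 21.8, 73.6 and 97.2 CPM in Epsilon and 54.2, 21.3, 14.6 and 20.2 CPM in the other cells. For Ccnd2 both 4-week mice were above both 2-week mice in Epsilon cells and below them in the other cells. In the other cells of 2-week mouse 2 a single cell held 43 of 94 Ccnd2 UMIs, and without the highest cell of each mouse the other cells had 49.2, 11.8, 13.1 and 18.4 CPM, so the times overlapped there.

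The 4 other genes with a positive interaction were pancreatic enzyme genes that are abundant in Acinar cells. Prss1 (trypsinogen) had 29.9, 3.49, 12.9 and 164 CPM in Epsilon cells, 107, 6.13, 10.4 and 71.2 CPM in the other enteroendocrine cells and 1154, 506, 374 and 1811 CPM in Acinar cells (interaction 2.75, SE 0.304, adjusted p 0.00022). Gm2663 and 1810009J06Rik, trypsinogen-like genes, had interactions of 1.69 and 1.67. Ctrc, a chymotrypsin, had 119, 135, 106 and 137 CPM in Epsilon and 180, 192, 88.4 and 112 CPM in the other cells (interaction 1.01, adjusted p 0.0325). Single Epsilon cells of 4-week mouse 2 held 139 of 196 Prss1, 363 of 576 Gm2663 and 234 of 378 1810009J06Rik UMIs. In 2-week mouse 2 a single Epsilon cell held 78 of 155 Ctrc UMIs, and a single other cell 233 of 847. Without the highest cell of each mouse Ctrc was at 110, 68.1, 85.6 and 114 CPM in Epsilon cells. The other cells then had 162, 140, 79.2 and 105 CPM. The 3 trypsinogen-type genes belong to a family of near-identical copies, so the split of UMIs between them is uncertain. Over the acinar list 2 of 26 genes passed and 25 of 26 interactions were positive (median 0.754, beside 0.0061 over all genes tested). The part of transcripts from Acinar cells in these 4 genes was not tested. The other calls on lists were Iapp and Gast among 18 other hormones, Iapp among 11 islet genes, and Pcsk2, 1 of 13 genes of ghrelin production and 1 of 32 secretory genes.

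Gast and Thbs1 had negative interactions. Gast, gastrin, had 17.9, 1.75, 10.4 and 5.87 CPM in Epsilon and 345, 3.63, 2964 and 537 CPM in the other cells (interaction -3.52, SE 0.505, adjusted p 0.0124). Thbs1, thrombospondin, had 2.17, 18.3, 1.84 and 1.68 CPM in Epsilon and 1.75, 9.54, 43.0 and 7.40 CPM in the other cells (interaction -4.36, SE 0.693, adjusted p 0.00781). Both genes were at low counts in Epsilon cells: 1 cell held 24 of 33 Gast UMIs in 2-week mouse 1, and 1 cell held 18 of 21 Thbs1 UMIs in 2-week mouse 2. Without 2-week mouse 1 the adjusted p was 0.339 for Prss1, 0.237 for 1810009J06Rik, 0.375 for Pcsk2 and 0.0556 for Gast. It was 0.233 for Thbs1 without 2-week mouse 2, 0.299 for Ctrc and 1 for Thbs1 without 4-week mouse 1, and 0.0814 for Ctrc and 0.282 for Pcsk2 without 4-week mouse 2. Ghrl had an interaction of 1.75 that missed the threshold (adjusted p 0.0567). For comparison, the same test between times called 1 of 6494 genes in Delta cells (0.0154%), 10 of 6283 in Ppy+ cells (0.159%), 6 of 7349 in ECL cells (0.0816%) and 4 of 8833 in progenitors (0.0453%).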

How the data were processed

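The authors deposited UMI counts per gene and cell, made with Cell Ranger 4.0.0 and Seurat 3.2.3 on mm10 per the submitters' processing notes, and lists of cell labels. The tuft and enteroendocrine table held the same counts as the merged table (summed difference 0). Counts were summed per mouse and subtype and scaled to CPM (per 1000000 UMIs). edgeR 4.0.16 in R 4.3.3 (TMM, filterByExpr, robust quasi-likelihood test, two-sided) was the main test and DESeq2 1.42.0 the alternative. p-values were adjusted over all genes tested, with a threshold of 0.05. The SE beside an edgeR log2 difference is that difference, without sign, divided by the square root of the test's F statistic. Python 3.11.15 with numpy 2.4.6, pandas 2.3.3, scipy 1.17.1 and matplotlib 3.10.9 gave the shares, ratios and plots. Other alternatives changed the gene filter, the cells used, the thinning, the mouse block, the pseudocount (1 or 10 CPM) and left out each mouse in turn. The scripts were tested on simulated data.

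Named genes were the 30 highest in Epsilon cells at a mean of at least 50 CPM, the 10 lowest, members of the 18 gene lists, and up to 10 genes per direction past each test with a mean of at least 10 CPM (the 3 smallest p per direction where none passed). The members and lists were chosen with earlier results of these data known. Genes named for a setting other than the main test were chosen after their values were seen. Some genes that the rule names are not reported here.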

Additional observations from a re-analysis of the deposited data

Results flagged for a closer look

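In 9 genes edgeR's interaction test, blocked by mouse, called a different time effect in Epsilon cells than in the pooled other enteroendocrine cells. The mix of subtypes in the pooled cells differed by mouse, and its part in these calls was not tested. The log2 differences of the time effect were 2.75 for Prss1, 2.17 for Ccnd2, 1.69 for Gm2663, 1.67 for 1810009J06Rik, 3.84 for Iapp, 1.01 for Ctrc, 1.44 for Pcsk2, -4.36 for Thbs1 and -3.52 for Gast. In Acinar cells Gm2663 was at 3136, 3586, 4752 and 7330 CPM and 1810009J06Rik at 1873, 828, 1491 and 4433 CPM in the 4 mice, and in Epsilon cells at 118, 43.6, 201 and 483 CPM and at 68.5, 20.9, 65.0 and 317 CPM. The part of acinar transcripts in these interactions was not tested. Single Epsilon cells held much of some of these sums: 32 of 42 and 32 of 35 Iapp UMIs in the 4-week mice, 139 of 196 Prss1 UMIs in 4-week mouse 2, 18 of 21 Thbs1 UMIs in 2-week mouse 2 and 24 of 33 Gast UMIs in 2-week mouse 1.

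Cells rich in Ghrl were also found outside the Epsilon label. Taking at least 5% Ghrl among a cell's UMIs, a level chosen after the values were seen, 147 such cells carried another label or none (20, 8, 66 and 53 in the 4 mice). Of these, 79 had no deposited type. They had a median of 1960.0 UMIs, and with Ghrl left out they had 1231 CPM of Acsl1, 1721 CPM of Cdkn1a and 1782 CPM of Maged2. An EYFP UMI was found in 6 of these 79 cells, where the list of types that leaves them out covers EYFP+ cells. Another 37 cells were labelled Acinar/MucinDuctal, with a median of 2581 UMIs, 196 CPM of Acsl1 and 138220 CPM of acinar enzymes. Of these, 1 cell of 2-week mouse 1 had 118013 UMIs, and the other 36, from the 4-week mice, had 323 CPM of Acsl1 and 121860 CPM of enzymes (434 and 57.7 CPM of Acsl1 in 4-week mouse 1 and mouse 2). The 214 Epsilon cells past the same level had 2272 CPM of Acsl1 and 13576 CPM of acinar enzymes. The Ppy+ label held 19 and the Delta label 8 of the 147.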

How the results depend on the processing

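No paired analysis was possible because the labels give each mouse an ID of its own and nothing ties a 2-week mouse to a 4-week mouse. Within mice, the Ghrl-high against Ghrl-low comparison gave 120 genes with no replicate block (119 among the 444), 127 with DESeq2 and 209 after thinning. It gave 284 to 368 without each mouse in turn. None of the named genes that were checked changed sign under these settings, and the remaining calls were not checked for this. The Epsilon comparison between times gave 1 gene with DESeq2, 22 without a gene filter, 1 (Iapp, adjusted p 0.0283) in cells with at least 2 EYFP UMIs, and 0 to 204 without each mouse (204 without 2-week mouse 1, 114 without 2-week mouse 2, 4 without 4-week mouse 1). Iapp passed without 2-week mouse 1 (adjusted p 1.49e-06) and without 2-week mouse 2 (5.16e-06), with 1 cell of each 4-week mouse holding 32 of its UMIs in these fits. The interaction gave 1 gene with DESeq2, 29 without a filter and 23 to 55 without each mouse, with 5 to 8 of the 9 kept. In other subtypes DESeq2 and leaving out mice gave 2 and 29 to 50 genes in Delta cells, 8 and 39 to 141 in Ppy+ cells, 3 and 6 to 155 in ECL cells, and 7 and 12 to 195 in progenitors. The difference in the Epsilon share was -0.0292 percentage points of all typed cells and -7.6 to 8.53 without each mouse (-1.75 without 4-week mouse 1). The genes 2-fold above every other subtype numbered 8 to 11 without each mouse, 10 with hormones left out. Leaving out a mouse makes a rule over every mouse easier to meet, so a rise there can come from the rule alone. Genes highest or lowest in Epsilon cells in every mouse numbered 521 and 14 with Ghrl left out of the totals and 294 and 28 with 7 hormones left out, against 116 and 43. Of the 10 genes named as lowest, 2 and 4 were still lowest in every mouse under these totals. These totals and the fits on EYFP-selected cells, on Ghrl-positive cells, on cluster 9 and on the other subtypes were chosen after seeing the data. With a mouse left out an arm has 1 mouse, which is assumed to vary like the others. Why these counts move was not tested.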

Other observations

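The genes that were lowest in Epsilon cells, relative to the lowest other subtype of the same mouse, were Selenop, Bri3, Scpep1, Cenpv, Gadd45g, Mt1, Bag1, Gm10260, Sh3bgrl and Plaat3. With Ghrl left out of the totals 2 of these 10, Selenop and Bri3, were still lowest in every mouse, and with 7 hormones left out 4 were (Selenop, Bri3, Scpep1 and Mt1). Selenop, a secreted selenium carrier, had 128, 154, 132 and 226 CPM in Epsilon cells against means of 330 CPM in Delta, 734 in Ppy+, 991 in ECL and 285 in progenitor cells. Mt1, a metal-binding metallothionein, had 95.7, 94.2, 94.5 and 77.9 CPM against means of 202, 400, 915 and 338 CPM. Of these 10 genes 1, Gadd45g, was higher in Ghrl-high than in Ghrl-low Epsilon cells.

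Interferon and MHC genes summed to 3201, 1037, 1408 and 1773 CPM in Epsilon cells, highest in 2-week mouse 1. That mouse was also highest in Delta (2501 CPM), Ppy+ (2997.5 CPM), ECL (2762 CPM) and progenitor cells (6500 CPM). Immediate early genes, which rise during tissue dissociation, summed to 5430, 10839, 6641 and 7532 CPM in Epsilon cells, highest in 2-week mouse 2. Each other subtype was also highest in that mouse, with Delta at 10479, Ppy+ at 5924, ECL at 8619 and progenitors at 10035 CPM. Neither pattern was thus particular to Epsilon cells. Proliferation genes summed to 205, 426, 236 and 303 CPM, beside a mean of 1099 CPM in progenitors.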
